A study of Mus musculus with 6 samples.

Results

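The 1000 peaks described here were open chromatin sites of mouse small intestinal crypts with the lowest scaled read counts, on average, in the libraries numbered 2 (one WT and one Smarcad1-KO) relative to the other 4 libraries. They were chosen by their values. The 6 columns of log2 read counts were quantile normalized over the 122141 autosomal peaks of the 123510 peaks in the series, and a score was formed as the mean of WT2 and KO2 minus the mean of WT1, WT3, KO1 and KO3. The 1000 lowest scores (0.819% of autosomal peaks) were taken, and these peaks are called the members. Differences between the number 2 libraries and the others are therefore the rule itself and are given as a description, with no test.

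The assay was ATAC-seq, where a transposase inserts sequencing adaptors into open DNA. There were 3 WT and 3 KO libraries from whole crypt nuclei of male C57BL/6 mice, kept free of opportunistic pathogens. In the KO, floxed exons of the chromatin remodeler gene Smarcad1 are deleted by Villin-Cre, which acts in the intestinal epithelium, so other cells in a crypt preparation keep the gene. The ages of the mice are not stated in the sources used here, the genotype of the WT with respect to Cre and the floxed allele is not given in the labels, and the number in a title is not explained by them. The libraries held 4339306 to 16301164 reads in peaks.

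Crypts hold stem cells at their base, dividing progenitors above them and secretory cells among them. Their enhancers, the distal sites that control genes, are bound by factors of the intestinal lineage such as CDX, GATA, HNF1, HNF4 and FOX proteins and by TCF and LEF, through which Wnt signals act. Promoters in mammals are often rich in G and C, whereas many enhancers are poorer in these bases. The yield of a fragment in a sequencing library is also known to depend on its GC content.

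The sequences below are examples picked for low GC content and a motif match, and do not stand for the members as a whole. They are the central 200 bases (GRCm38, plus strand, from RefSeq) of some members, 3 among the lowest scores and 1 among the strongest values, that lay in introns or between genes and in the 2 lowest deciles of peaks by GC content, where that stretch held a match. Capitals mark matches on either strand to short motifs of lineage factors. For the CDX homeodomain factors the motif searched was TTTATNG. For the zinc finger factors of the GATA family it was AGATAA. HNF1 was searched as GTTAATNAT and HNF4 as CAAAGTCCA. For the forkhead factors, written FOX, the letters were TGTTTAC. For the factors TCF and LEF of the Wnt pathway they were TCAAAG.

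Intergenic, lowest score of all, chr13:119300076-119300275: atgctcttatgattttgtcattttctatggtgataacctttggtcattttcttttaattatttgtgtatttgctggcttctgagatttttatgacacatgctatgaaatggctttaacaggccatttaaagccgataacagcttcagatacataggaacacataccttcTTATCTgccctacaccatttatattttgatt
Intergenic, chr14:81193851-81194050: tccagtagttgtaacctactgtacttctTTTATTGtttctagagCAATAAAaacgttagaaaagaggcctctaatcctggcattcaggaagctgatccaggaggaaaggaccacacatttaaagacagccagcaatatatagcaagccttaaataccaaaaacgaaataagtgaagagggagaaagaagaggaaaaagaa
Intergenic, chr5:17296626-17296825: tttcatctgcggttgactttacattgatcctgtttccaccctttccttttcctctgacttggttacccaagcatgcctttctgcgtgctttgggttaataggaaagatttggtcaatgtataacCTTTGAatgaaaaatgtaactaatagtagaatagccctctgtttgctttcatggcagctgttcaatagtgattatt
Intron of Col8a1, chr16:57686151-57686350: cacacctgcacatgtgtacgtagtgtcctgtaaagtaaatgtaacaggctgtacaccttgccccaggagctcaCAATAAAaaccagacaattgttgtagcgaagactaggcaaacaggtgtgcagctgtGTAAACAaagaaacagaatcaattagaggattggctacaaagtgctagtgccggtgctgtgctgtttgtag

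The GC content of these stretches was 33%, 38%, 38.5% and 45%, in the order printed. The first held a GATA match, the second 2 CDX matches, the third a TCF and LEF match and the fourth a CDX and a FOX match. Another member that met the same conditions, chr13:90560101-90560700, had no match in its central 200 bases. A match is a description of the letters and not a bound site.

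The members had about 2.3-fold fewer reads, after scaling, in the number 2 libraries. Over the members the score ran from -2.48 to -1.07 on the log2 scale, with a median of -1.20, while the median over all autosomal peaks was 0.01 with an SD of 0.417. After quantile normalization, the median log2 value of the members was 6.11 in WT1, 5.03 in WT2 and 6.29 in WT3. It was 6.03 in KO1, 4.88 in KO2 and 6.33 in KO3. The median of all autosomal peaks was 5.81 in every library, so the members lay below it in the number 2 libraries and above it in the others. Both number 2 libraries lay below all 4 others in 942 of the 1000 members, against 14.8% of autosomal peaks, a count that the rule largely fixes.

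**Figure D1:**
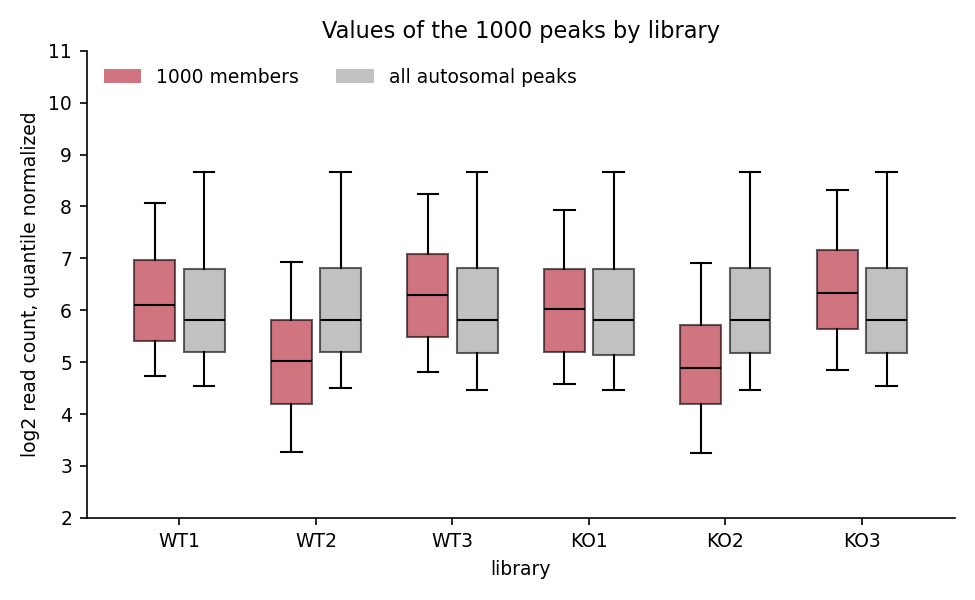
Quantile normalized log2 read counts by library for the 1000 members (red) and all autosomal peaks (grey). Lines show medians, boxes the quartiles and whiskers the 5th and 95th percentiles, and the member medians of WT2 (5.03) and KO2 (4.88) are lower than the 6.03 to 6.33 of the other libraries.

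Both genotypes took part in the drop at nearly every member, which the rule largely fixes. The score is the mean of the deviations of WT2 and KO2 given next, so nothing is read from their counts. WT2 minus the mean of WT1 and WT3 had a median of -1.20 over the members, and it was below 0 in 998 of them. KO2 minus the mean of KO1 and KO3 had a median of -1.26, and it was below 0 in 999. Both deviations were below -1 in 496 members and in 544 of all autosomal peaks. In recovered reads, the members had a median of 36.5, 16 and 87 reads in WT1, WT2 and WT3 and of 30, 20 and 23 reads in KO1, KO2 and KO3. They took 0.344% of the reads in peaks in WT2 and 0.369% in KO2, against 0.715% to 0.912% in the other libraries. Without the single member Gm10222, described below, these shares were 0.342% and 0.347% against 0.655% to 0.810%.

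**Figure D2:**
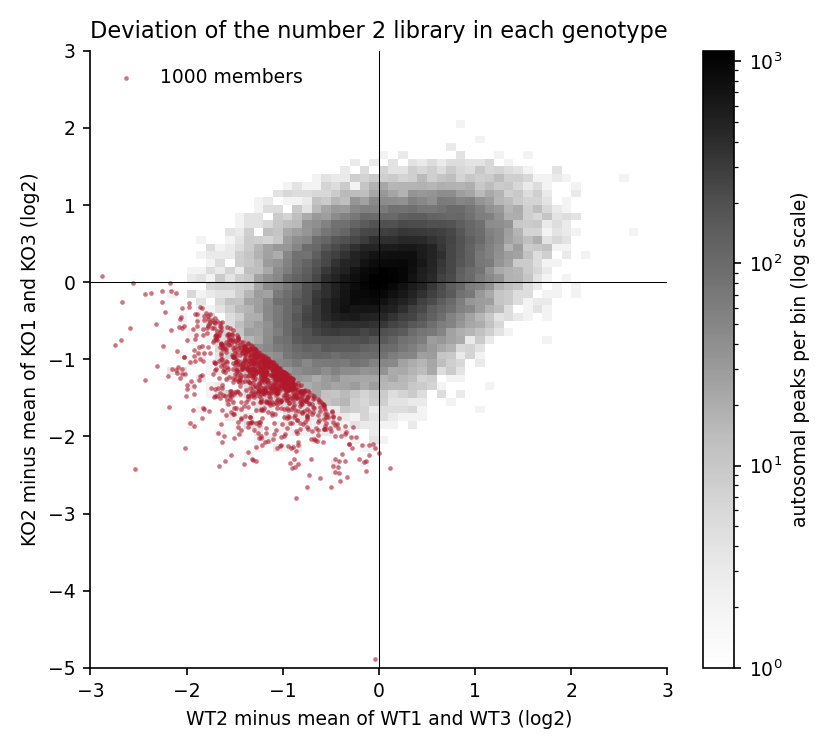
Each axis gives, in log2, how far the number 2 library of 1 genotype lay from the mean of the other 2 libraries of that genotype. Grey shading counts all autosomal peaks per bin on a log scale and red points are the members, which fill the lower left corner because the rule adds both deviations, while 1 point (Tnfrsf23) lies near -4.88 on the KO axis.

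Among the remaining libraries, the members were also not level. In 501 members (50.1%) the number 3 library exceeded the number 1 library in both genotypes, as did 25.8% of all autosomal peaks. The opposite order in both genotypes was found in 78 members (7.8%) and in 26.6% of autosomal peaks. The median of WT3 minus WT1 over the members was 0.11, and that of KO3 minus KO1 was 0.33. The libraries of each genotype thus stood in the order 2, 1, 3 in the medians over the members, with numbers 1 and 3 differing less than either did from number 2.

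The members were poor in G and C. Their median GC content was 41.8% (quartiles 38.3% and 45.7%), compared with 47.6% (44.3% and 51.2%) for autosomal peaks. Only 164 members (16.4%) exceeded the autosomal median, and this share lay between 14.3% and 23.8% when any library was left out of the score. Of the members, 470 fell in the lowest decile of peaks by GC content (up to 41.4% GC) and 167 in the next decile, whereas the 2 highest deciles held 21 and 31. The surrounding 10 kb was also lower in GC, with a median of 39.4% against 41.4%. The 1000 peaks with the opposite pattern, highest in both number 2 libraries, had a median GC content of 51.9%.

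GC content moved with the score over all peaks and not in the members alone. The median score rose from -0.22 in the lowest GC decile to 0.14 in the second highest and was 0.12 in the highest. In the lowest GC decile, the median of all peaks relative to that of the library's autosomal peaks was -0.18, -0.31 and -0.04 in WT1, WT2 and WT3 and -0.22, -0.39 and 0.00 in KO1, KO2 and KO3. The number 2 libraries were lowest in both genotypes and the number 3 libraries highest, the order also seen in the members. Across the 122141 peaks, which share the same 6 libraries, Spearman's rho between score and GC content was 0.253, and that between score and width was 0.0134. The part of GC-dependent yield in the members' pattern was not tested.

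**Figure D3:**
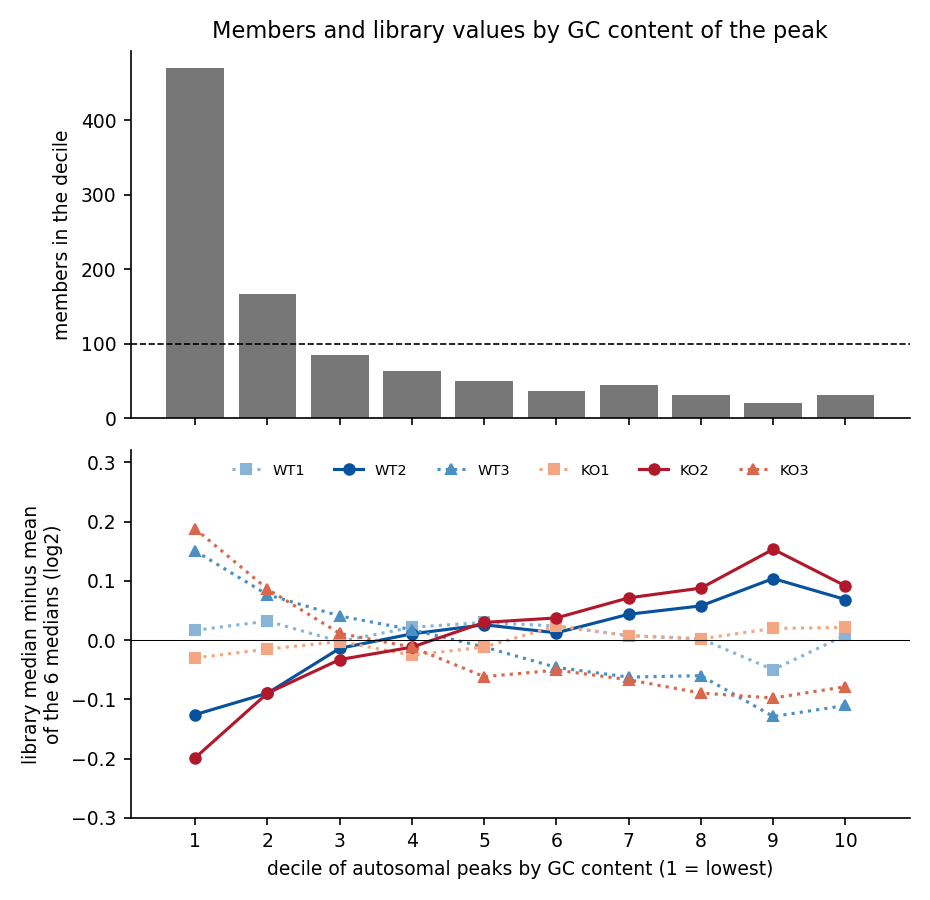
Above, the number of members in each decile of autosomal peaks by GC content, with an even share as a dashed line; below, the median of each library in that decile minus the mean of the 6 library medians, in log2. The lowest decile holds 470 members, and there WT2 and KO2 lie lowest and WT3 and KO3 highest, with the order turned round in the upper deciles.

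Removing the GC trend changed what the rule selected. When each library was centred on its median within each GC decile, an alternative chosen after seeing the data, 490 of the members were among the 1000 lowest scores. The 1000 peaks so taken had a median GC content of 47.5% and 167 of them lay in the lowest GC decile. With constant shifts of whole libraries in place of quantile normalization (values as deposited, centred on the median or scaled by the trimmed mean of M values, which select alike by construction), 656 members were kept and 22.5% of the selection exceeded the autosomal median GC. Leaving WT2 out of the score kept 502 members, and leaving KO2 out kept 447.

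Members were found less often at gene starts than peaks were in general, but this depended on the scaling. There were 86 members (8.6%) within 1 kb of an annotated gene start, against 13.5% of autosomal peaks, and 820 (82%) lay over 5 kb away, against 76.2%. With constant shifts in place of quantile normalization the share within 1 kb was 20.5%, and with centring by GC decile it was 36.6%, so its side of the background turned. Within the lowest GC decile, 3.83% of members and 3.27% of all peaks lay within 1 kb of a gene start. By annotation, 476 members were intergenic, 376 intronic, 74 over coding exons, 38 over UTRs and 36 over non-coding exons. The intronic share of 37.6% compared with 32.1% of autosomal peaks, and the coding exon share of 7.4% with 11.5%. Within the lowest GC decile both orders turned, with 40.6% of members and 42.1% of all peaks in introns and 6.60% and 3.85% over coding exons.

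Library-wide contrast between promoters and distal sites moved with the same numbers. The median log2 value of peaks within 1 kb of a gene start minus that of peaks over 5 kb away was 1.92, 1.82 and 2.12 in WT1, WT2 and WT3, and 1.97, 1.74 and 2.28 in KO1, KO2 and KO3. The number 2 libraries had the smallest contrast in each genotype and the number 3 libraries the largest. The SD of the deposited log2 values over autosomal peaks was likewise smallest in WT2 (1.22) and KO2 (1.14) and reached 1.32 in WT3 and 1.48 in KO3, and WT1 (1.23) and KO1 (1.28) lay between. Whether this contrast, which differs with library quality, has a part in the members' pattern was not tested.

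In strength the members were middling among all autosomal peaks. Their mean over all 6 libraries, a combination orthogonal to the score, had a median of 5.73 in log2, against 5.77 for autosomal peaks, and 48.2% of members exceeded the autosomal median. Within the lowest GC decile, 53.2% of members and 42.2% of all peaks exceeded that autosomal median. Per kb of peak, the medians of the mean over all 6 libraries were 6.44 in members and 6.41 in autosomal peaks. In the number 1 and 3 libraries, whose values the rule used, the median level was 6.16 against 5.77. The lowest decile of peaks by that level held 1 member, the eighth decile 173 and the highest 62. Median width was 600 bp in the members and 750 bp in autosomal peaks, and 27.5% of the members were wider than the autosomal median, against 39.3% of all, but with constant shifts in place of quantile normalization the share was 60.3%. The widest member spanned 2100 bp.

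Motifs of intestinal lineage factors were found in more of the members than of all peaks, by a smaller ratio within the lowest GC decile. Even there GC content was not equal, with a median of 38.2% in members and 39.7% in all peaks of that decile. In the central 300 bases, the CDX motif matched 28.6% of members and 13.1% of autosomal peaks, GATA 28.5% and 16.4%, and TCF and LEF 29.2% and 19.9%. HNF1 matched 4% and 1.1%, FOX 9.2% and 4.41%, and the interferon regulatory factor motif IRF (GAAANNGAA) 13% and 7.54%. These motifs are rich in A and T. HNF4 matched 2% and 1.29%, and in the lowest GC decile 2.77% and 2.10%. Within the lowest GC decile the gap was narrower in ratio, with CDX at 37.4% of 470 members and 25.8% of 12217 peaks, GATA at 38.7% and 30.5%, HNF1 at 7.02% and 3.02% and TCF and LEF at 35.1% and 27.9%. In the 1000 peaks taken after centring by GC decile, CDX matched 18.2%, GATA 19.7%, HNF1 1.6% and TCF and LEF 22.1%. In those of them in the lowest GC decile, CDX matched 40.1%, GATA 41.3% and HNF1 7.19%.

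Other motifs differed less or were rarer in the members. The AP-1 motif (TGANTCA) matched 11.1% of members and 11.6% of autosomal peaks, and in the lowest GC decile 11.9% and 16.2%. The TEAD motif (GGAATG) stood at 18.1% and 17.1%, and that of RUNX (TGTGGTT) at 5.8% and 6.18%. The POU motif (ATGCAAAT) matched 1.8% and 1.46%, and in the lowest GC decile 1.49% and 2.64%. GC-rich motifs were rarer, with SP and KLF (GGGCGG) at 7.2% and 10.6%, CTCF (CCANNAGGG) at 4.8% and 6.93% and NRF1 (GCGCNTGCG) at 0.1% and 1.06%. Within the lowest GC decile this order turned for CTCF (4.04% of members and 2.83% of all peaks). SP and KLF were close there, at 1.49% (7 members) and 1.27%. The ETS motif (CCGGAAG) matched 1.5% of members and 2.64% of autosomal peaks, and in that decile 1.06% (5 members) and 0.557%. After centring by GC decile, SP and KLF matched 25.4% of the 1000 peaks taken and CTCF 4.7%. All matches were counted on both strands, and motifs may overlap each other. In the 1000 peaks highest in the number 2 libraries, CDX matched 7.5% and GATA 11.9%.

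**Figure D4:**
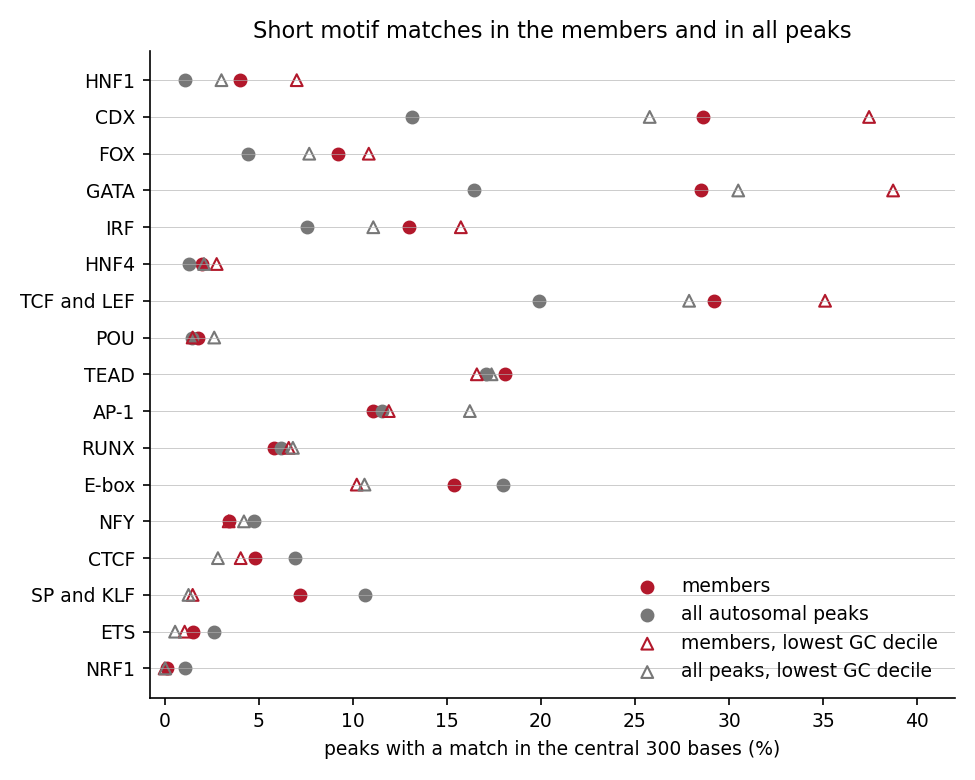
Percent of peaks with a match to each short motif in the central 300 bases, for the members (filled red), all autosomal peaks (filled grey) and the same 2 sets within the lowest GC decile (open triangles). CDX, GATA, HNF1, FOX and TCF and LEF lie to the right in the members, by less in ratio when the comparison is held within the lowest GC decile.

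The share of members with a gene name was close to that of all peaks. The authors' annotation gave a name to 514 members (51.4%), against 49.9% of autosomal peaks, and 451 overlapped the named gene. Within the lowest GC decile, 52.1% of members and 46.9% of all peaks had a name. The named share of the members lay between 42.3% and 52.5% when a library was left out of the score. It was 56.6% with constant shifts and 64.6% with centring by GC decile. The 1000 peaks highest in the number 2 libraries carried a name in 67.7% of cases. The 514 names stood for 445 genes, of which 393 had 1 member, 42 had 2 and 6 had 3.

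The named genes were longer than those of all named peaks at the median. For the 507 named members whose gene identifier had a GENCODE length, the median gene length was 121 kb, against 80.6 kb for all named autosomal peaks with one, and 36.3% against 28% lay at genes over 200 kb. In the lowest GC decile these medians were 149 kb for members and 127 kb for all peaks. The members' neighbourhoods held fewer genes, with a median of 14 gene starts within 1 Mb against 17. Their share by chromosome ranged from 0.269% of the peaks of chromosome 11 and 0.464% of chromosome 19 to 1.27% of chromosome 16. Few members adjoined each other: 37 had another member within 10 kb. The 1920 neighbouring peaks that were no members had a median score of -0.15, and 64.1% of them were below 0, against 49.2% of autosomal peaks.

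Genes with several members were mostly large genes with many peaks. Lphn3 (Adgrl3 in GENCODE), an adhesion G protein-coupled receptor of 805 kb, carried 6 members among its 41 peaks. Its strongest drop was at chr5:81465601-81466500 (non-coding exon), with log2 values of 6.14, 4.34 and 6.93 in WT1, WT2 and WT3 and of 6.48, 4.69 and 6.95 in KO1, KO2 and KO3. The number 2 value was the lowest in both genotypes. The GC content of the 6 Lphn3 members had a median of 35.3%, and that of all its peaks 42%.

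Xrcc4, which acts with DNA ligase IV in end joining of double-strand breaks, carried 4 members among 14 peaks, and the transcriptional repressor Zbtb20 carried 4 among 39. At chr13:89929201-89930100, in an Xrcc4 intron, the log2 values were 7.10, 5.83 and 7.81 in WT1 to WT3 and 6.58, 5.47 and 7.95 in KO1 to KO3. The median score over all peaks of Xrcc4 was -0.48 and of Zbtb20 -0.39. These medians include the members, which were chosen for low scores, so they do not describe the other peaks alone. The name U6, a spliceosomal RNA gene, was carried by 5 members on 5 chromosomes among 205 peaks. These are different loci of a repeated gene family and are no single gene.

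The remaining genes of this kind carried 3 members each. They were Csmd3 (58 peaks), Dach1 (17), Etl4 (57), Kcnt2 (19), Macrod2 (100) and Ppp1r9a (16), of which Dach1 encodes a transcriptional cofactor, Kcnt2 a potassium channel, Macrod2 a hydrolase of mono-ADP-ribose and Ppp1r9a the actin-binding protein neurabin. The median score over all peaks was -0.40 for Dach1 and -0.39 for Ppp1r9a but 0.05 for Kcnt2 and -0.03 for Csmd3. All 3 members of Csmd3 and of Kcnt2 lay in the lowest GC decile.

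The lowest scores were found both at distal sites and at gene starts. The lowest of all, -2.48, was at the intergenic peak chr13:119299951-119300400, 20.4 kb from the nearest gene start and 29.3% in GC. It had log2 values of 5.88, 3.20 and 5.93 in WT1 to WT3 and of 4.71, 3.33 and 6.39 in KO1 to KO3. Next to the number 2 libraries, KO1 was also lower than the other 3. The intergenic peak chr14:81193651-81194250 (score -2.08) had values of 6.02, 4.05 and 6.63 in WT and of 5.58, 3.84 and 6.24 in KO, with no overlap between number 2 libraries and others.

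Among the 10 lowest scores, the peaks at Scel, Gpr137b-ps, Gm48693 and Tnfrsf23 overlapped a gene start. The start of Scel, which encodes sciellin, a precursor of the cornified envelope of stratified epithelia, lay in chr14:103513051-103513800, with values of 7.26, 5.40 and 7.42 in WT and 7.52, 5.10 and 8.02 in KO. GC-rich members also occurred there, since chr13:12650101-12650700 over Gpr137b-ps (68% GC) and chr12:20614651-20615550 over Gm48693 (71.3% GC) had scores of -1.95 and -1.88. In an intron of Slit2, a secreted guidance ligand of Robo receptors, chr5:48240901-48241200 had values of 5.43, 3.20 and 5.25 in WT and of 4.45, 3.33 and 5.32 in KO. The other peaks of the 10 lowest scores were chr5:17296351-17297100 and chr13:90560101-90560700, both intergenic, with scores of -1.90 and -1.89, the Lphn3 peak given above and the Tnfrsf23 peak described next.

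The second lowest score, -2.46, came from KO2 and not from WT2. This peak (chr7:143685301-143686200, 53.2% GC) covered the start of Tnfrsf23, which encodes a decoy receptor for the death ligand TRAIL. It had 87, 76 and 215 reads in WT1, WT2 and WT3 and 52, 1 and 26 reads in KO1, KO2 and KO3. WT2 was within the range of its group, at a log2 value of 7.13 beside 7.42 and 7.75, whereas KO2 was at 0.52 beside 6.82 and 6.70. The 4 adjacent peaks named Tnfrsf23, over 19.6 kb, held 7 reads in KO2 and 42 to 372 in the other libraries, that is 0.907 reads per 1000000 reads in peaks (RPM) in KO2, 13.2 and 9.68 RPM in KO1 and KO3 and 20.5, 27.3 and 22.8 RPM in WT1 to WT3. KO1 and KO3 also lay below every WT library at each of the 4 peaks. The nearest peaks of Tnfrsf22 and Osbpl5 on either side held 54 and 76 reads in KO2. Of the autosomal peaks with a mean of at least 20 reads in the other libraries, 3 had at most 3 reads in KO2, and all of them were at Tnfrsf23. By the same limits, 2 autosomal peaks had at most 3 reads in WT2. This stretch was picked out for description because of its values.

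**Figure D5:**
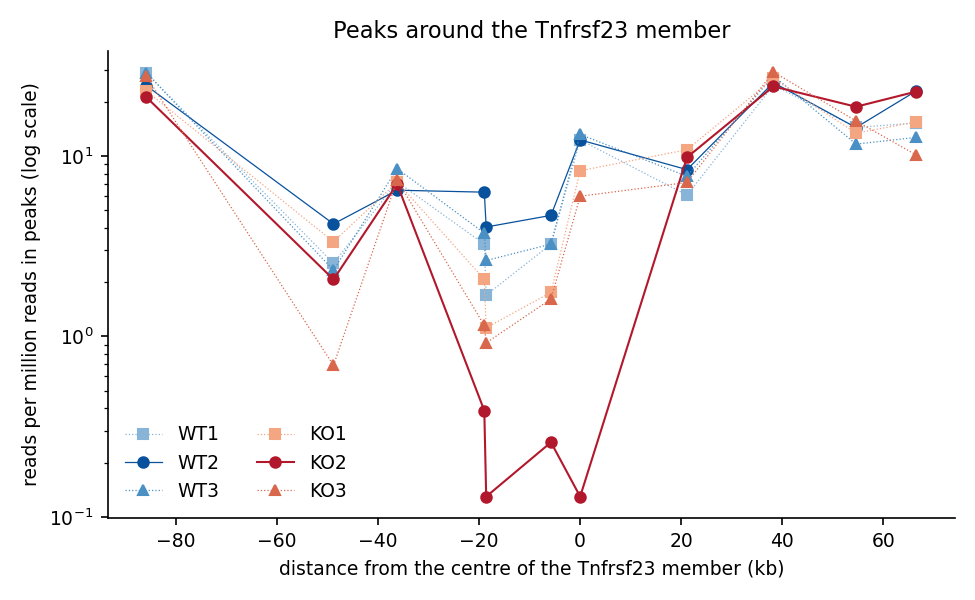
RPM, reads per 1000000 reads in peaks (log scale), at the 11 peaks around the Tnfrsf23 member, by distance from its centre, for the 6 libraries; lines only join the points of a library. KO2 falls to 0.907 RPM summed over the 4 Tnfrsf23 peaks and holds 16 to 188 reads at the other 7 peaks.

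The strongest members were led by a peak that resembles mitochondrial DNA. The Gm10222 peak (chr1:24611701-24613500) matched the mitochondrial genome at 99.9% over 1800 bases, so its reads cannot be placed with certainty. It had log2 values of 7.53, 7.03 and 11.08 in WT1, WT2 and WT3 and of 13.63, 11.26 and 14.11 in KO1, KO2 and KO3. KO2 was the lowest KO library and WT2 the lowest WT library, but all KO values exceeded all WT values. Of the autosomal peaks, 4 aligned with the mitochondrial genome at 90% identity or more over at least 300 bases, and this was the member among them.

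The other strong members showed the drop with high counts. At chr15:43476751-43478250, which carries the name Gm10373 and overlaps the coding exons of Emc2, a subunit of a membrane protein complex of the endoplasmic reticulum, the log2 values were 9.98, 8.33 and 10.23 in WT1 to WT3 and 9.53, 8.13 and 10.40 in KO1 to KO3. The Dsel start (chr1:111863851-111865950), of a gene related to the epimerase of dermatan sulfate, had values of 9.21, 7.82 and 9.54 in WT and 9.22, 7.81 and 9.99 in KO. The peak at the start of Flrt3, named Macrod2 (chr2:140670301-140671950), had 8.99, 7.62 and 9.64 in WT and 8.96, 7.63 and 9.90 in KO. In each of them WT2 and KO2 were close to each other and below the other 4.

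Intronic strong members had the same shape. The Col8a1 peak (chr16:57685501-57687000), in a collagen gene, had values of 8.75, 7.32 and 9.10 in WT and 8.75, 7.10 and 9.47 in KO. The Myo10 peak (chr15:25662751-25663950), in the gene of an unconventional myosin of filopodia, had 8.70, 7.32 and 8.99 in WT and 8.74, 7.07 and 9.41 in KO. The Dnajc5b peak (chr3:19565851-19567650) had 8.71, 7.20 and 9.21 in WT and 8.94, 7.50 and 9.57 in KO. The remaining strong members were intergenic.

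Some members lay at crypt marker genes. Of 12 lists with 357 genes in all, 267 genes had an autosomal peak, and 4 of their 847 peaks (0.472%) were members, beside 0.819% of all autosomal peaks. By list, 2 of 58 enteroendocrine peaks, 1 of 89 stem cell peaks and 1 of 155 enterocyte peaks were members. One was in an intron of Lgr5, the R-spondin receptor that marks crypt base stem cells (chr10:115484401-115485150). Its log2 values were 7.02, 6.05 and 7.44 in WT1 to WT3 and 7.60, 5.69 and 7.35 in KO1 to KO3. Of the enteroendocrine list, an intronic peak of the transcription factor gene Rfx6 (chr10:51720901-51721200) had 5.06, 4.05 and 5.43 in WT and 4.45, 3.33 and 5.32 in KO, and the start of Scg2, a granin of secretory vesicles (chr1:79439851-79440300), had 5.88, 4.20 and 5.81 in WT and 5.21, 4.61 and 6.00 in KO. The fourth was at Cyp3a11, a cytochrome P450 of drug metabolism (chr5:145858501-145859100), with 6.22, 4.97 and 6.57 in WT and 5.82, 4.98 and 6.39 in KO.

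The lists of proliferation, Paneth, goblet, tuft, immune, stromal, pathway, stress response and housekeeping genes had no member. The summed reads of some lists nevertheless moved with the number 2 libraries. The 155 peaks at 36 of 48 enterocyte genes took 3269 and 3117 RPM in WT2 and KO2, above the 2528 to 2828 of the other 4. Their median GC content was 45.6%, and 37 of the peaks had a score below 0. The 27 peaks at 18 of 19 proliferation genes took 567 and 569, below the 639 to 714 of the others. Stromal (489 and 508 against 395 to 472) and housekeeping lists (612 and 598 against 536 to 577) were above the others in both, and the remaining 8 lists overlapped. In bulk nuclei, fewer cells of a type and less accessibility per cell cannot be told apart, and the part of cell type makeup in the members' pattern was not tested.

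The genotype comparison was made on the deposited log2 values and is orthogonal to the score, so the rule did not use it. By limma with Benjamini-Hochberg adjustment over all peaks, 0 members had an adjusted p below 0.05, as did 0 of all 123510 peaks (0.0%). At an unadjusted p below 0.05 there were 4 members (0.4%), against 2.28% of all peaks. Voom on the recovered reads called 0 members and 3 of all peaks. With the replicate number as a block, limma called 7 of the 1000 members and 272 of all peaks, Gm10222 and Tnfrsf23 among them. The members' choice for a low number 2 library widened the spread within each genotype, with a median residual SD of 0.907 against 0.363 for all peaks and a median standard error of the change of 0.472 against 0.310. The median log2 fold change of KO against WT was 0.00 over the members (5th to 95th percentile -0.55 to 0.54) and -0.02 over all peaks. By number, the median of KO minus WT over the members was -0.13, -0.09 and 0.09 for numbers 1, 2 and 3.

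All 3 KO values lay above all WT values in 1 member (2.7% of all peaks) and below them in 2 (4.1% of all peaks). The rule nearly fixes these counts, since the genotypes must overlap wherever both number 2 libraries lie below the other 4, and nothing is read from them. The first was Gm10222, with means of 8.55 ± 2.21 for WT and 13.0 ± 1.53 for KO (SD over 3 libraries). The log2 fold change was 4.45 (standard error 0.891, limma adjusted p 0.851). It was called without WT3 (limma adjusted p 0.0115) and without KO2 (2.69e-04), and it rests on reads that mitochondrial DNA could also give. Tnfrsf23 had means of 7.43 ± 0.311 for WT and 4.68 ± 3.60 for KO (SD over 3 libraries), and its log2 fold change of -2.75 (standard error 1.12, limma adjusted p 1.00) was -0.67 without KO2 (standard error 0.325, limma adjusted p 0.986). The third was the intergenic peak chr1:12252301-12252600, with values of 5.06, 4.69 and 5.39 in WT and 4.45, 2.84 and 4.58 in KO and a log2 fold change of -1.09 (limma adjusted p 1.00).

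The other members with the smallest unadjusted p were not separated by genotype. The peak named 7SK (chr7:103274401-103275150), at a copy of a small nuclear RNA gene, had values of 5.78, 4.20 and 5.70 in WT and 6.21, 5.43 and 7.52 in KO, a log2 fold change of 1.16. The intronic peak of Epha6, an ephrin receptor gene (chr16:59846551-59846850), had 4.67, 2.88 and 5.04 in WT and 5.71, 4.52 and 5.46 in KO, and rested on 4 reads in WT2. The intergenic peak chr3:60104701-60105150 had 5.73, 4.58 and 6.27 in WT and 5.37, 3.33 and 4.80 in KO. In all of them the limma adjusted p was 1.00 in the fit without a block. For 7SK the limma adjusted p was 0.00170 with the replicate number as a block.

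At the threshold the values formed no step. The 2 members just inside were the peak named Olfr1066 (chr2:86461201-86461500), with 5.06, 3.20 and 4.86 in WT and 5.12, 4.69 and 5.58 in KO, and chr1:12252301-12252600 given above, both with a score of -1.07. The 2 peaks just outside, chr16:51778801-51779550 and chr3:21294601-21295200, also had a score of -1.07, with WT2 at 4.58 and 5.46 and KO2 at 5.10 and 5.52.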

How the data were processed

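The authors trimmed adaptors with Trim Galore (0.4.1), mapped reads to GRCm38 with Bowtie2 (2.2.5), removed duplicates, limited mapping quality and called 1 set of MACS peaks in SeqMonk. Which libraries were pooled for peak calling is not given in the sources used here. The deposited values are log2 read counts per peak, scaled by the authors to the largest library. A second deposited table with the authors' edgeR p-values for KO against WT was not used.

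On the linear scale each library's values are whole multiples of 1 read (100% of the values, to within 0.02 of a read, more at high counts), apart from 1 value in KO1 and 32 in KO3 written as 0.9 of a read and taken as 0 reads. Quantile normalization for the score followed limma. KO was compared with WT by limma (3.58.1, R 4.3.3; lmFit and eBayes with trend, two-sided, Benjamini-Hochberg) on the log2 values as deposited, with no pseudocount or filter, because these are not counts. P-values measure the spread between these libraries. Annotation was GENCODE vM21, and gene names are those of the authors' table. Similarity to mitochondrial DNA was sought with blastn. Scripts were tested on simulated data.

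Peaks were named by a rule: the 10 lowest scores, the 10 strongest, the 10 genes with the most members, all members of the 12 gene lists, the 3 smallest p-values in each direction and the 2 peaks on either side of the threshold. Members and lists were chosen with earlier results of these data known. Alternatives were other scalings, a minimum of 20 reads, a pseudocount of 5, voom, 500 or 2000 peaks, each library left out, the replicate number as a block and, chosen after seeing the data, centring by GC decile. Reads are not independent molecules, so depth gives counting error only. One sequence among the strongest members is not reported here.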

Additional observations from a re-analysis of the deposited data

How the results depend on the processing

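Low GC content was the feature of the members that kept its side of the background under every alternative run, but centring by GC decile brought the share above the median GC to 48.5%, near the 50.0% of all autosomal peaks. Constant shifts of libraries (values as deposited, centred on the median or scaled by the trimmed mean of M values) kept 656 members and gave 56.6% named, 20.5% within 1 kb of a gene start, 22.5% above the median GC, 60.3% wider than the median and 85.8% above the median level. Centring by GC decile, chosen after seeing the data, kept 490 and gave 64.6%, 36.6%, 48.5%, 66.9% and 87%. Leaving out 1 library kept 447 (without KO2) to 834 members, with 42.3% to 52.5% named and 6.1% to 9.6% at gene starts. Of the peaks so taken, 14.3% to 23.8% were above the median GC, 15.7% to 30.8% wide and 40% to 65.5% above the median level. The KO against WT fits without 1 library called 0 to 1 members and 0 to 30 of all peaks, the most without KO2. A minimum mean of 20 reads gave 13.3% above the median GC, 37.1% wide and 80.5% above the median level. The 500 lowest scores gave 24% wide and the 2000 lowest 30.65%. Within 2 kb of a gene start lay 10.6% of members and 16.1% of autosomal peaks. The cause of these shifts was not tested.

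With the replicate block, limma called 7 of the 1000 members and 272 of all 123510 peaks. With quantile normalization as well it called 4 members and 219 of all peaks, and voom with the block called 7 and 266. Gm10222, Tnfrsf23, 7SK and the intergenic peak chr17:54570451-54571950 (named after its values were seen) were among the called members each time. For 7SK the adjusted p with the replicate block was 0.00170. The deviations of same-numbered WT and KO libraries from their group means correlated across peaks at 0.04, 0.42 and 0.41 for numbers 1, 2 and 3, and the labels do not say that a number marks a shared mouse, litter or day, so the samples were taken to share only a number. Members had a median of 16 and 20 reads in WT2 and KO2 and 233 had a mean under 20 reads, which limits single weak members more than the counts over all of them.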
